A study of Mus musculus with 2 samples.

Results

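*Apoa1*, *Apoa4*, *Apob*, *Apoc2*, *Apoe*, *Apom*, *Ttr*, *Afp* and *Rbp4* encode apolipoproteins and other proteins that carry lipids, hormones or vitamins in plasma, and their levels were read in single cells of gastrulating mouse embryos. The 9 genes were taken by symbol from the 32285 rows of the deposited gene table, and all 9 had a row and UMIs (unique molecular identifiers, 1 per captured transcript) in both libraries. Embryos of embryonic day 7 were pooled by genotype into 1 droplet library each. The control pool held 4 embryos, which the sample label calls WT and the series design gives as Sox2cre:Yapflox/+. The *Yap1* cKO pool held 3 embryos of the genotype Sox2cre:Yapflox/flox. Sox2-Cre recombines in the epiblast and its derivatives and not in the extraembryonic lineages that branch off earlier, so the visceral endoderm is not a targeted tissue. It may nonetheless carry 1 deleted *Yap1* allele in Yapflox/flox embryos, through the paternal germ line. By the genotypes given, such embryos made up the *Yap1* cKO pool and not the control pool. The paper's discussion, however, also counts controls among the embryos that likely lack 1 allele there, and its mouse methods describe Cre-negative Yapflox/flox controls. Whether the *Yap1* dose of this tissue differs between the pools is thus not settled by these sources and was not tested.

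With 1 library per genotype, no test was made between them. All intervals are at 95% and cover counting error only, not the spread between embryos, pools or libraries. Cells were barcodes with at least 5000 detected genes, 791 in control and 864 in *Yap1* cKO, with medians of 75715 and 80922 UMIs. The libraries shared 2 cell barcodes, none of them among these cells. Both samples are labelled female, yet Y-linked UMIs were present in both libraries, so cells were also parted into Y-bearing and *Xist*-bearing cells. *Yap1* was at 29.2 CPM (its UMIs per 1000000 UMIs of the same cells, here 593 UMIs) in control and at 1.13 CPM (26 UMIs) in *Yap1* cKO epiblast-like cells.

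The visceral endoderm is the absorptive and secretory layer that surrounds the conceptus before a yolk sac circulation exists. It takes up maternal nutrients through receptors such as cubilin and megalin, and releases lipoproteins and carrier proteins towards the embryo, as the liver does later. *Apob* is the structural protein of the particles that leave the cell, *Apoa1* and *Apoa4* belong to high density and intestinal lipoproteins, *Apoc2* activates lipoprotein lipase, *Apoe* is a ligand of the low density lipoprotein receptor family and *Apom* binds sphingosine-1-phosphate. *Ttr* carries thyroid hormone and the complex of retinol with *Rbp4*, and *Afp* is the albumin-like carrier of the fetal circulation.

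All of the 9 genes are protein coding (mm10, GRCm38 coordinates). *Apoa1* (chromosome 9, 46228580 to 46230466, plus strand) lies 10.23 kb from *Apoa4* (46240696 to 46243459, plus strand), and *Apoc2* (chromosome 7, 19671579 to 19677941, minus strand) lies 18.168 kb from *Apoe* (19696109 to 19699188, minus strand). *Apob* is on chromosome 12 (7977648 to 8016835, plus strand), *Apom* on chromosome 17 (35128997 to 35132050, minus strand), *Afp* on chromosome 5 (90490737 to 90508907, plus strand) and *Rbp4* on chromosome 19 (38116629 to 38125281, minus strand). *Apoa4* and *Afp* overlap antisense genes of the same gene table (*Gm10680* and *Gm43449*). The library type marks strand, but the strand setting of the counting is not given in the sources used here.

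The 150 bases upstream of the RefSeq start furthest upstream are shown for the genes whose patterns across cells set the results apart: *Apoc2* and *Rbp4*, the pair that varied most alike by the lower of the 2 libraries' correlations, *Afp*, which varied least like *Apoc2* by the same measure, *Apoe*, which was also present outside the visceral endoderm, and *Apoa1*. They read 5′ to 3′ on the strand of the gene (GRCm38.p6), and capitals mark matches, on either strand, to letters of motifs of factor families known from liver and endoderm. For HNF1 factors the letters searched were GTTAAT. For forkhead factors they were TGTTTGC and, as a variant of that motif, also TGTTTAC. For GATA factors the letters AGATAA were used. For nuclear receptors the search took CAAAGT. The TATA box was searched for as TATAAA.
*Apoa1* (chr9:46228480-46228629, plus strand): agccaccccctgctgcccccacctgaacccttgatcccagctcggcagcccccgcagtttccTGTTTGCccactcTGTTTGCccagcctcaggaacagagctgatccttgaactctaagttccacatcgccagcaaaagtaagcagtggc
*Apoc2* (chr7:19677942-19678091, minus strand): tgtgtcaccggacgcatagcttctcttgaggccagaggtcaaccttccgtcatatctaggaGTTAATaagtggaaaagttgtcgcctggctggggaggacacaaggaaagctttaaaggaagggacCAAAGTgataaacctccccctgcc
*Apoe* (chr7:19699189-19699338, minus strand): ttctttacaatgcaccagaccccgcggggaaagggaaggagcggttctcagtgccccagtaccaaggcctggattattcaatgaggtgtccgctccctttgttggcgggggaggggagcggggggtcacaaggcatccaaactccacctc
*Afp* (chr5:90490564-90490713, plus strand): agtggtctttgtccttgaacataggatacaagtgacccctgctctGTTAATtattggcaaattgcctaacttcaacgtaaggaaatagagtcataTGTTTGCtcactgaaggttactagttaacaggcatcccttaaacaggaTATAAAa
*Rbp4* (chr19:38125322-38125471, minus strand): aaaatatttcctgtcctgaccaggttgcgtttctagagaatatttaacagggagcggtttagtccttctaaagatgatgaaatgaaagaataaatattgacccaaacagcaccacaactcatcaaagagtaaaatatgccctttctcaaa

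*Apoa1* held the forkhead letters at bases -88 and -75 from the start, *Apoc2* held GTTAAT at -89 and CAAAGT at -24, and *Afp* held GTTAAT at -105, TGTTTGC at -55 and TATAAA at -7. Positions count from the RefSeq start, which differs from the gene bound given above for *Apoa1* (46228630 against 46228580), *Afp* (90490714 against 90490737) and *Rbp4* (38125321 against 38125281). Part of the *Apoa1* stretch thus lies within the gene as given above. No matches in the stretches shown overlapped each other. *Apoe* and *Rbp4* held none of these letters in this stretch, and RefSeq lists 3 and 2 starts for them. Matches lay elsewhere: for *Apoe*, TATAAA at -100 and -96 of the start at 19698621, and GTTAAT at -172 and TGTTTAC at -5 of that at 19698398. For *Rbp4* they were TGTTTAC at -241 of the start shown and TATAAA at -28 of the start at 38124811. Among all 32851 RefSeq windows, stretches of the same 150 bases held GTTAAT in 3.71%, a forkhead match in 4.19%, AGATAA in 5.65%, CAAAGT in 7.04% and TATAAA in 7.57% of cases. A match describes letters only and not binding.

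Populations were gated by markers that include none of the 9 genes. The visceral endoderm-like cells were 90 in control and 217 in *Yap1* cKO. Of their defining markers, *Amn* stood at 662 and 592 CPM, *Dab2* at 1971 and 2013 CPM, *Lrp2*, which encodes megalin, at 268 and 313 CPM, and the transcription factor *Hnf4a* at 92.0 and 108 CPM, in control and *Yap1* cKO. Decidual, immune and giant cell markers were at or near 0 in them, and of 5 parietal endoderm markers *Sparc* was at 289 and 278 CPM, *Lamb1* and *Pth1r* were also present, and *Thbd* and *Plat* were below 1 CPM. Within 0.4 of the cut on the marker score lay 5 control and 7 *Yap1* cKO cells. The 21 anterior visceral endoderm-like cells of each library were gated among them by 6 further markers. Among these are *Cer1* (519 and 391 CPM) and *Dkk1* (1405 and 1501 CPM), which encode inhibitors of Nodal and Wnt signals made by the anterior part of this layer. The anterior cells kept *Amn* (219 and 272 CPM) and *Dab2* (1088 and 1556 CPM), and *Lrp2* was nearly absent from the control ones (0.839 and 28.2 CPM).

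Visceral endoderm-like cells held nearly all transcripts of the 9 genes. Of all their UMIs in cells, 88.9% in control and 95.9% in *Yap1* cKO lay in this population, where the 9 genes together took 2.77% and 2.90% of all UMIs. In extraembryonic ectoderm-like cells they took 0.0428% and 0.0381%, and in epiblast-like cells 0.00933% and 0.00793%. The 88.9% and 95.9% also depend on the number of visceral endoderm-like cells, 90 and 217. *Apoe* was less confined, with 7084 and 4596 UMIs in extraembryonic ectoderm-like cells beside 38292 and 88826 in visceral endoderm-like cells. Each of the 9 genes was at least 10 times as high in visceral endoderm-like as in epiblast-like cells of both libraries, as were 3.48% of the 10589 genes with enough UMIs. The fold over epiblast-like cells was smallest for *Apoe*, at 73.3 (69.7 to 77.0) and 80.4 (76.3 to 84.7). For *Apoc2* it was 1770 (1414 to 2247) and 1496 (1261 to 1788), and for *Apob*, with 10 and 9 UMIs in all epiblast-like cells, 4511 (2452 to 9410) and 5907 (3111 to 12918).

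**Figure D1:**
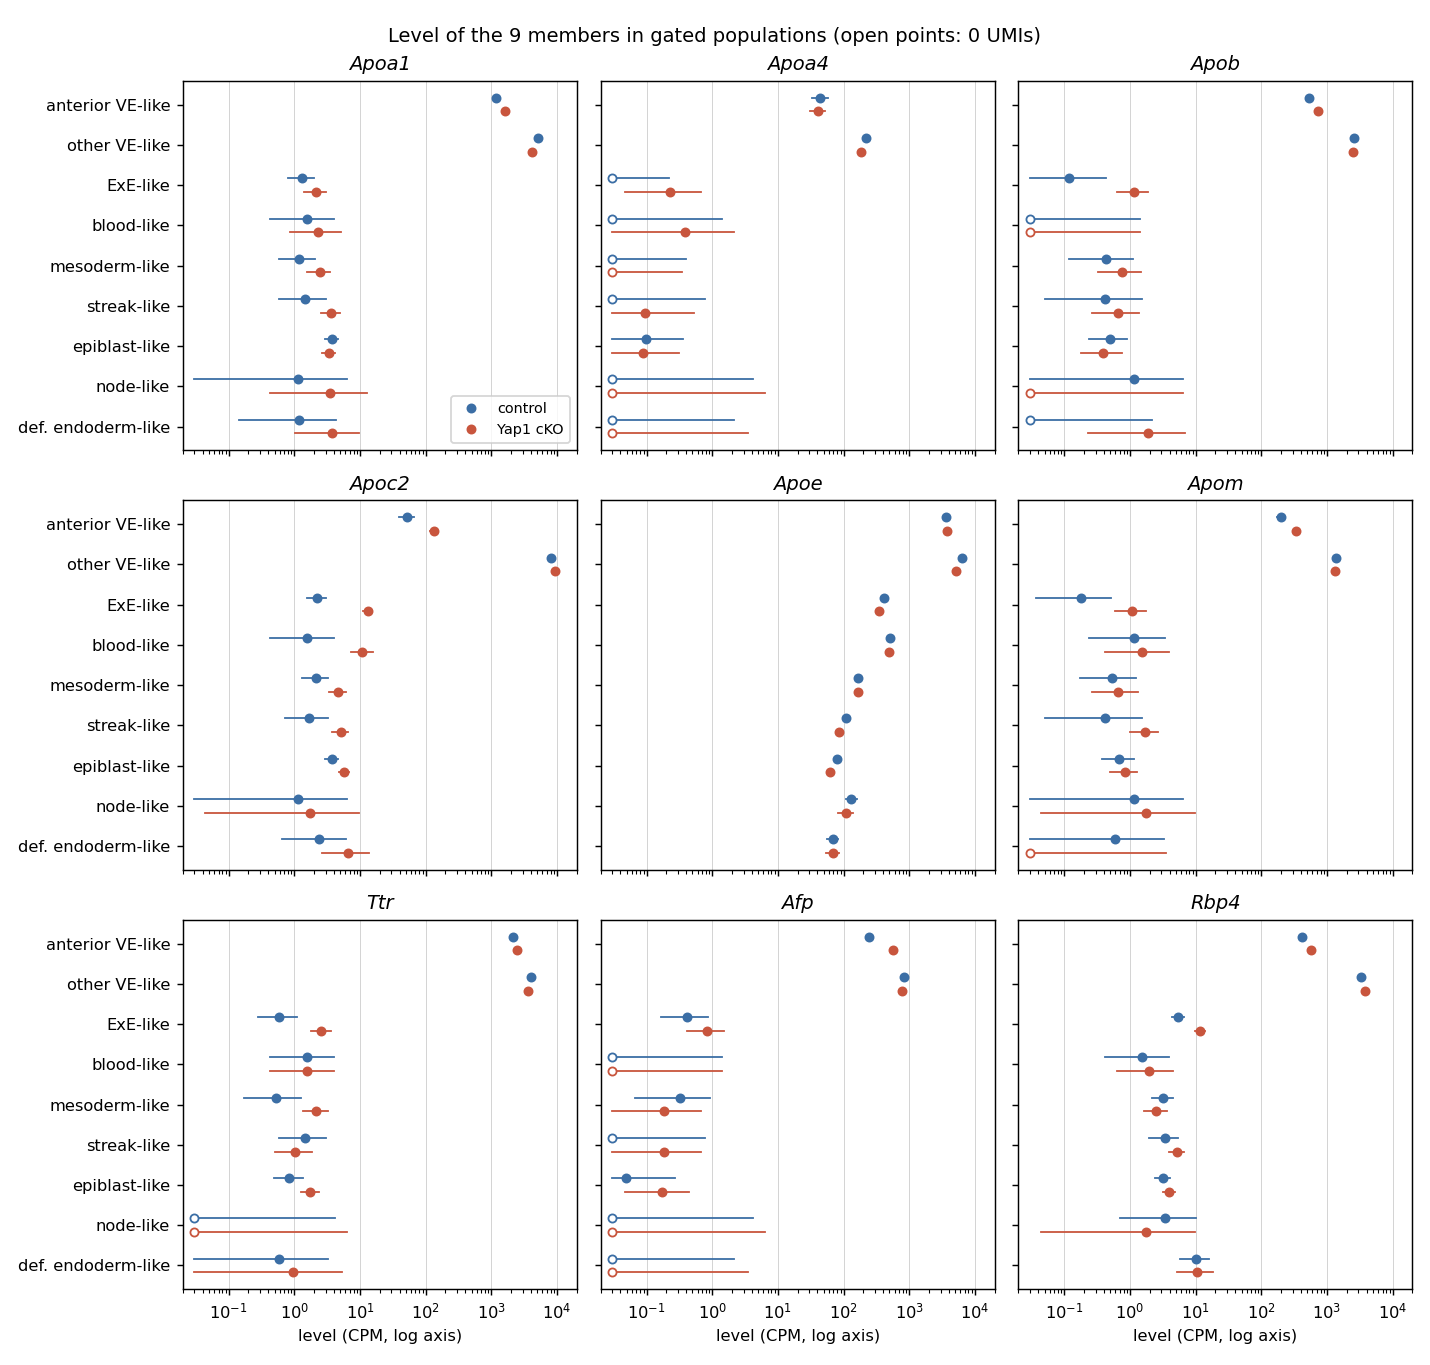
Level of each of the 9 genes (horizontal log axis, CPM) in gated populations of the control (blue) and *Yap1* cKO (red) library, with 95% intervals for counting error and open points where no UMI was found. *Apoe* stays above 60 CPM in every population plotted, while the other 8 genes fall from the visceral endoderm-like (VE) cells to at most 13.0 CPM in the other populations plotted.

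The libraries are given control first in what follows. As 3′ libraries count molecules by their ends, CPM was not divided by gene length, and levels are compared for 1 gene between groups of cells and not between genes. Among the lipoprotein proteins, *Apoa1* was at 4423 CPM (4372 to 4475) and 3927 CPM (3898 to 3957) in visceral endoderm-like cells. The level in *Yap1* cKO divided by that in control, called the ratio here, was 0.888 (0.876 to 0.900). *Apoa4* was at 191 and 173 CPM (ratio 0.908, 0.849 to 0.971). *Apob* was at 2220 and 2317 CPM (ratio 1.04, 1.02 to 1.06). The ratios of these 3 genes thus lay between 0.888 and 1.04.

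*Apoc2*, the lipase activator, was the member with the highest ratio, with 6620 CPM (6558 to 6683) beside 8609 CPM (8565 to 8652) and a ratio of 1.30 (1.29 to 1.31). *Apoe*, the receptor ligand, had the lowest, at 5902 and 5062 CPM (ratio 0.858, 0.847 to 0.868). *Apom* was at 1152 and 1234 CPM (ratio 1.07, 1.04 to 1.10). The pair that lies 18.168 kb apart on chromosome 7 thus had ratios on opposite sides of 1.

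Of the carriers, *Ttr* was at 3683 and 3479 CPM (ratio 0.945, 0.931 to 0.959) and *Afp* at 738 and 763 CPM (ratio 1.03, 1.0 to 1.07). *Rbp4* was at 2775 CPM (2735 to 2816) and, in the mutant pool, 3433 CPM (3406 to 3460), with a ratio of 1.24 (1.22 to 1.26). None of the 9 genes passed a fold of 1.5 in either direction in visceral endoderm-like cells, against 1.78% higher and 3.24% lower of the 9733 genes with at least 100 UMIs. The median ratio was 1.03 over the 9 genes and 0.983 over all genes. *Yap1* itself was at 32.7 CPM (28.4 to 37.4) and, in the mutant pool, 26.5 CPM (24.1 to 29.0), with a ratio of 0.811 (0.688 to 0.959).

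These sums mix anterior cells, 21 of 90 in control and 21 of 217 in *Yap1* cKO, with cells of the rest of the layer. In the other visceral endoderm-like cells, 69 and 196, the ratios ran from 0.808 for *Apoa1* (0.797 to 0.820) and for *Apoe* (0.798 to 0.818) to 1.17 for *Apoc2* (1.16 to 1.18), and *Rbp4* was at 1.13 (1.11 to 1.15). Again none passed 1.5, beside 1.66% of 9351 genes higher and 1.55% lower. *Afp*, at 848 and 783 CPM there, had a ratio of 0.923 (0.892 to 0.955).

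Anterior cells held less of the 9 genes than the other visceral endoderm-like cells of their own library. Together the genes took 0.841% and 1.02% of the UMIs of anterior cells, and 3.2% and 3.09% of those of the others. *Apoa1*, *Apoa4*, *Apob*, *Apoc2*, *Apom* and *Rbp4* were lower by at least 1.5 times in both libraries, 6 of the 9, as were 12.2% of 6956 genes, and none was higher, as 11.7% of the genes were. The median ratio of anterior to other cells was 0.203 and 0.298 over the 9 genes and 0.987 and 1.01 over all genes tested.

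*Apoc2* stood apart in this comparison. It was at 52.0 CPM (39.9 to 66.7; 62 UMIs) in control and 133 CPM (115 to 151; 216 UMIs) in *Yap1* cKO anterior cells, and at 8098 and 9477 CPM in the others, ratios of anterior to other cells of 0.00642 (0.00492 to 0.00824) and 0.0140 (0.0122 to 0.0160). The per-cell medians were 25.9 and 52.0 CPM in anterior and 8925 and 9352 CPM in other cells. The highest control anterior cell (179 CPM) was above 1 of 69 other cells and the highest *Yap1* cKO one (828 CPM) above 7 of 196, so that the groups hardly overlapped. *Rbp4* followed with ratios of 0.126 (0.115 to 0.137) and 0.152 (0.142 to 0.162), then *Apom* with 0.145 and 0.251, *Apoa4* with 0.195 and 0.217, *Apob* with 0.203 and 0.298, and *Apoa1* with 0.229 and 0.384.

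*Apoe*, *Ttr* and *Afp* were the least lowered. For *Apoe* the ratio of anterior to other cells was 0.557 (0.540 to 0.575) in control and 0.733 (0.715 to 0.753) in *Yap1* cKO, and for *Ttr* it was 0.539 and 0.682. In both cases only the control value passed 1.5-fold. *Afp* was at 0.292 (0.259 to 0.328) in control and 0.726 (0.678 to 0.776) in *Yap1* cKO.

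**Figure D2:**
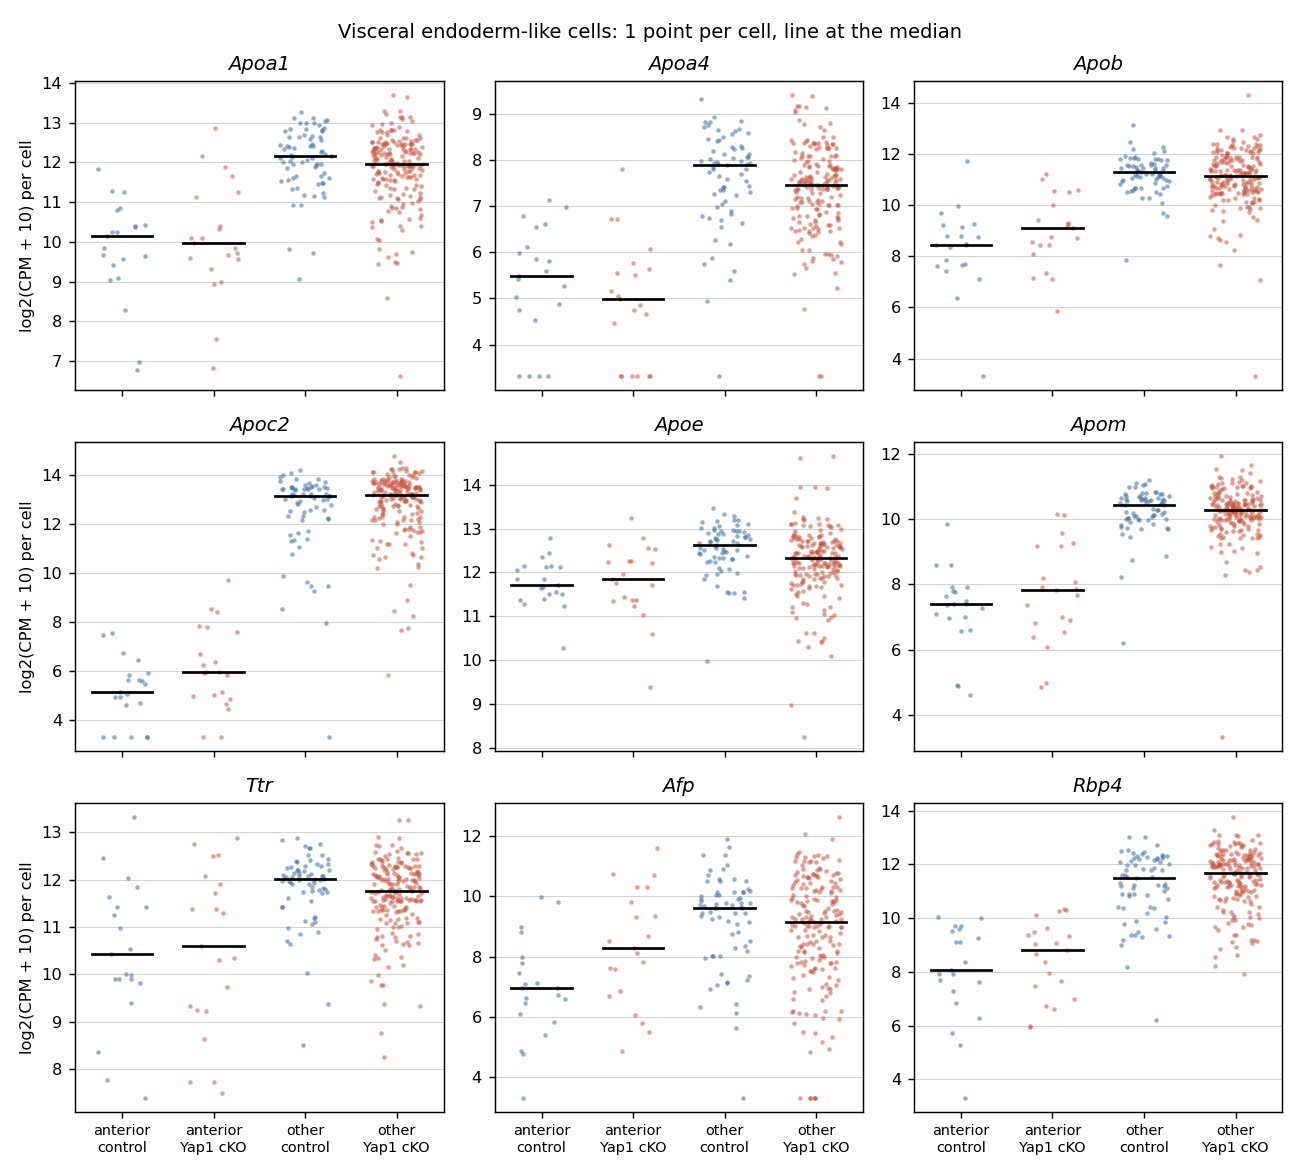
Level of each gene in single visceral endoderm-like cells (vertical axis, log2 of CPM + 10), with 1 point per cell and a line at the median, for anterior and other cells of the control (blue) and *Yap1* cKO (red) library. *Apoc2* medians differ most between anterior and other cells, from 25.9 to 8925 CPM in control, while those of *Apoe* lie closest, at 3349 and 6276 CPM.

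Between the libraries, 3 of the 9 genes passed 1.5-fold in anterior cells, all higher in *Yap1* cKO, where 2.59% of 4590 genes were higher and 2.20% lower. *Apoc2* had a ratio of 2.55 (1.91 to 3.44), *Afp* of 2.30 (2.01 to 2.63), from 248 CPM (220 to 277) to 568 CPM (532 to 606), and *Apom* of 1.68 (1.44 to 1.97), from 198 to 333 CPM. *Apob*, *Rbp4* and *Apoa1* were at 1.40 (1.27 to 1.54), 1.36 (1.22 to 1.52) and 1.36 (1.27 to 1.45), while *Ttr* was at 1.13 (1.07 to 1.19), *Apoe* at 1.06 (1.02 to 1.11) and *Apoa4* at 0.928 (0.635 to 1.36).

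Single cells weighed on these sums of 21 cells. In control, the same anterior cell held 37.6% of the *Afp* and 33.9% of the *Apoc2* UMIs. In *Yap1* cKO, 1 cell held 15.1% of the *Afp* UMIs and another cell 25.0% of the *Apoc2* UMIs. The median anterior cell had 114 CPM of *Afp* in control and 306 CPM in *Yap1* cKO. Other genes moved with them: *Cubn*, the cubilin receptor, was at 203 CPM and 508 CPM in anterior cells, of which 1 *Yap1* cKO cell held 35.6%. Of the gating markers given above for anterior cells, *Amn*, *Dab2*, *Lrp2* and *Dkk1* were also higher in *Yap1* cKO, and *Cer1* was lower. *Yap1* was at 37.8 CPM (27.5 to 50.5; 45 UMIs in 18 of 21 cells) in control and 12.3 CPM (7.49 to 18.9; 20 UMIs in 12 of 21 cells) in *Yap1* cKO anterior cells, a ratio of 0.325 (0.182 to 0.562), against 31.5 and 28.0 CPM in the other visceral endoderm-like cells. Their part in the differences of *Apoc2*, *Afp* and *Apom* was not tested.

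Definitive endoderm-like cells, which arise from the epiblast and share *Cer1* (683 and 1146 CPM) with anterior visceral endoderm, held little of the 9 genes. They were 19 and 15 cells, with *Amn* at 0 and 2.84 CPM and 0 UMIs of *Yap1* in *Yap1* cKO, which allows up to 2.84 CPM. Their marker *Cldn4* was nearly absent, so that their name rests on *Foxa2*, *Sox17* and *Trh*. *Apoe* was at 68.5 CPM (56.6 to 82.1) and 69.1 CPM (54.1 to 86.9), *Rbp4* at 10.0 CPM (17 UMIs) and 10.4 CPM (11 UMIs), and *Afp* and *Apoa4* had no UMI. In anterior visceral endoderm-like cells *Ttr* was at 2167 and 2445 CPM and *Apoa1* at 1180 and 1599 CPM, whereas the definitive endoderm-like cells had 1 UMI of *Ttr* in each library and 2 and 4 UMIs of *Apoa1*.

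Levels ranged widely among visceral endoderm-like cells of 1 library. *Apoe* varied least: the ratio of the 90th to the 10th percentile of cells was 2.90 in control and 3.53 in *Yap1* cKO, with medians of 5580 and 4967 CPM and no cell at 0. *Ttr* came next with 5.90 and 4.26. For *Apoc2* the same ratio was 586 and 47.8, with 6 and 2 cells at 0, lowest to highest cell 0 to 18706 CPM and 0 to 28031 CPM. Its 10th percentile was 21.2 CPM in control, below the median anterior cell (25.9 CPM), and 318 CPM in *Yap1* cKO. Anterior cells made up 21 of 90 and 21 of 217 cells, so these 2 ratios also depend on the share of anterior cells. For *Afp* the ratio of the percentiles was 21.8 and 31.0, with medians of 611 and 535 CPM and highest cells of 3862 and 6364 CPM. All 9 genes together ranged from 2568 to 49767 CPM, median 27026 CPM, in control cells and from 3125 to 86599 CPM, median 28979 CPM, in *Yap1* cKO cells.

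Most pairs of the genes varied together across these cells, with the anterior cells included. This describes cells that share a library and are not replicates. For many pairs r was lower without the anterior cells. It fell from 0.53 to 0.05 in control and from 0.45 to 0.22 in *Yap1* cKO for *Apoa1* with *Apoa4*. For *Apoa4* with *Ttr* it fell from 0.44 to 0.10 and from 0.36 to 0.21. A few pairs rose, such as *Apob* with *Ttr* in control, from 0.63 to 0.67. *Apoc2* and *Rbp4* had a Pearson r of log2(CPM + 10) of 0.79 over 90 control cells and 0.81 over 217 *Yap1* cKO cells, and 0.64 and 0.73 without the anterior cells. *Apoa1* and *Ttr* had 0.74 and 0.82, and 0.72 and 0.79 without the anterior cells, so that this pair hardly depended on the anterior cells. After every cell was thinned to 15000 UMIs the values were 0.76 and 0.80 for *Apoc2* with *Rbp4* and 0.68 and 0.78 for *Apoa1* with *Ttr*. By the lower of the 2 libraries' r, *Apoc2* and *Afp* were the least alike, at 0.46 and 0.14, and at -0.06 and 0.05 without the anterior cells. *Apoc2* and *Apoe* came next, at 0.53 and 0.17, and in control alone the lowest r was that of *Ttr* with *Afp*, at 0.35.

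**Figure D3:**
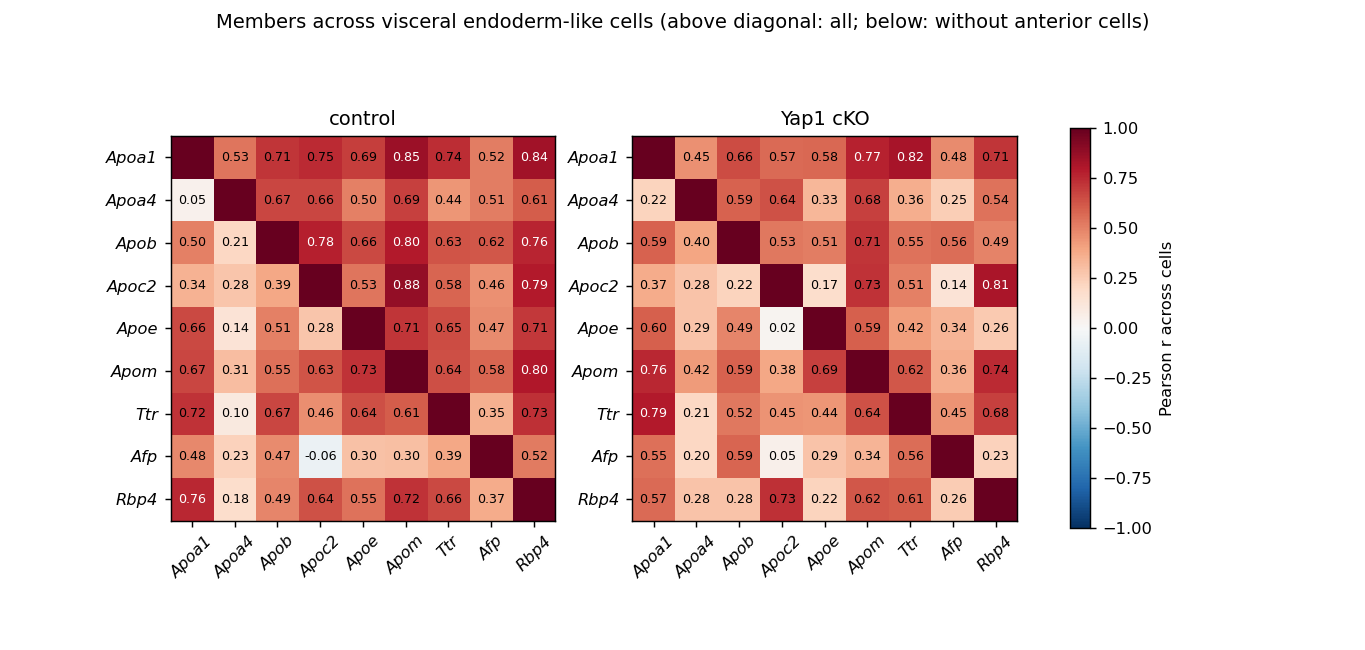
Pearson r of log2(CPM + 10) between each pair of genes across visceral endoderm-like cells of the control (left) and *Yap1* cKO (right) library, on a scale with blue below 0 and red above it, above the diagonal over all cells and below it without the anterior cells. *Apoc2* with *Rbp4* and *Apoa1* with *Ttr* stay high below the diagonal, and *Apoc2* with *Afp* is near 0 there.

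Among 3288 genes with a mean of at least 50 CPM in these cells, anterior ones included, those most like each gene were named by the lower of the 2 libraries' r. For *Apob* they were *Cubn* (0.78), *Mttp* (0.76), which loads lipid onto the *Apob* protein, and the transporter *Abcc2* (0.76). For *Apoe* they were the lysosomal proteases *Ctsl* (0.79), *Ctsh* (0.77) and *Ctsz* (0.77), and *Apom* had *Ctsb* (0.81), *Apoa1* (0.77) and the folate receptor *Folr1* (0.77). *Apoc2* was nearest to *Tdh* (0.87), *Car7* (0.84) and *Sdc4* (0.83), which encode threonine dehydrogenase, a carbonic anhydrase and a syndecan. *Rbp4* was nearest to *Apoc2* (0.79), the glucose transporter *Slc2a2* (0.75) and *Car7* (0.75).

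*Apoa1* had *Apom* (0.77), *Ttr* (0.74) and *Rbp4* (0.71) as its nearest genes, and *Ttr* had *Apoa1* (0.74), *Rbp4* (0.68) and *Apom* (0.62). *Apoa4* had *Apom* (0.68), *Ctsb* (0.67) and the lysosomal protease *Lgmn* (0.64). *Afp* was nearest to *Spp2* (0.69), to *Trf* (0.60), which encodes the iron carrier transferrin, and to *Apob* (0.56). The nearest genes were not worked out without the anterior cells, so they may in part reflect the split between anterior and other cells.

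*Apoc2*, *Rbp4* and *Afp* had other ratios when cells were parted by sex-linked UMIs. Y-bearing visceral endoderm-like cells were 25 and 18 (6 and 6 of them anterior), and *Xist*-bearing ones 59 and 178 (14 and 10 anterior). *Apoc2* was at 7872 and 2814 CPM in Y-bearing cells, a ratio of *Yap1* cKO to control of 0.357 (0.344 to 0.371), and at 6189 and 9362 CPM in *Xist*-bearing cells, a ratio of 1.51 (1.49 to 1.53). *Rbp4* was at 2686 and 1287 CPM in Y-bearing cells (ratio 0.479, 0.452 to 0.508) and at 2813 and 3698 CPM in *Xist*-bearing cells (ratio 1.31, 1.29 to 1.34). *Afp* went the other way, with 638 and 1468 CPM in Y-bearing cells (ratio 2.30, 2.13 to 2.48) and 792 and 722 CPM in *Xist*-bearing cells (ratio 0.911, 0.877 to 0.947). With the anterior cells left out, the ratios in Y-bearing cells were 0.414 for *Apoc2*, 0.522 for *Rbp4* and 2.39 for *Afp*. In *Xist*-bearing cells they were then 1.30 (1.28 to 1.31), 1.14 (1.12 to 1.17) and 0.788 (0.758 to 0.820), none past 1.5-fold.

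The split lay mainly within the *Yap1* cKO library. There the level of Y-bearing over that of *Xist*-bearing cells was 0.301 (0.290 to 0.311) for *Apoc2*, 0.348 (0.331 to 0.366) for *Rbp4* and 2.03 (1.93 to 2.14) for *Afp*. In control it was 1.27 (1.25 to 1.30), 0.955 (0.923 to 0.988) and 0.805 (0.751 to 0.861). Without the anterior cells, the 12 Y-bearing and 168 *Xist*-bearing cells of the *Yap1* cKO library gave 0.395, 0.414 and 2.39. The other 6 genes had values between 0.740 for *Apom* and 1.05 for *Apoe* over all visceral endoderm-like cells of the *Yap1* cKO library. With 3 embryos in that pool, the sex of a cell and the embryo it came from cannot be told apart.

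**Figure D4:**
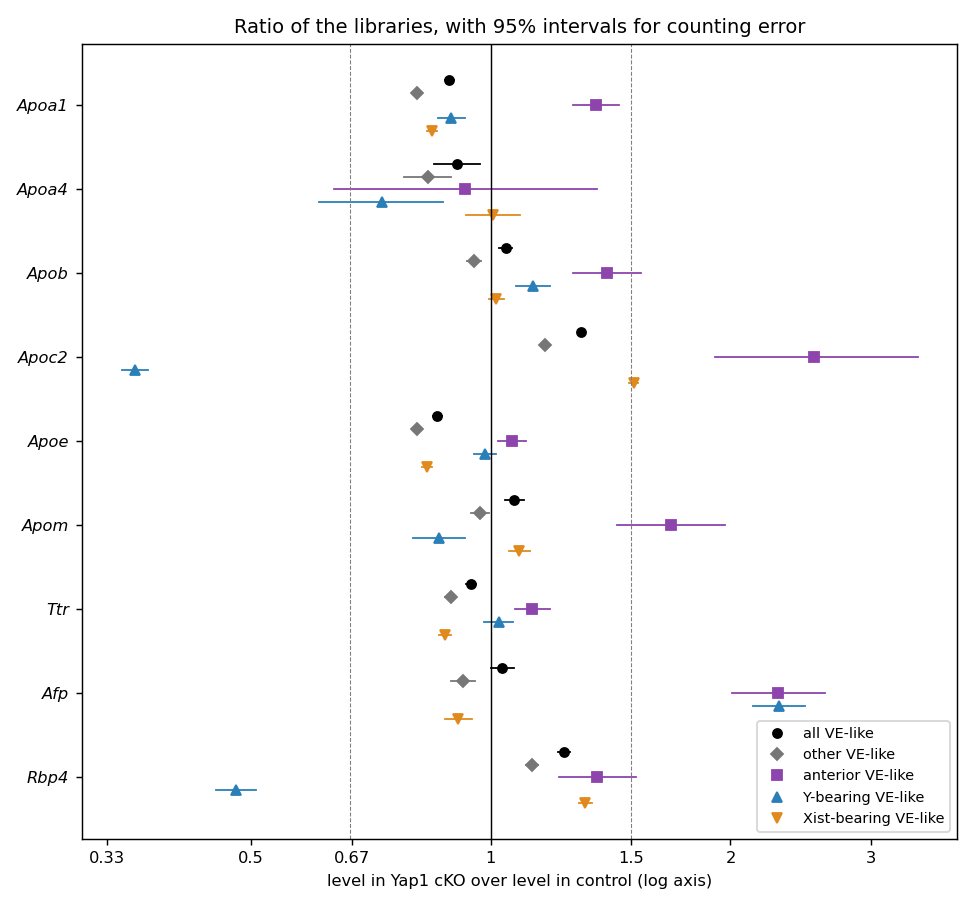
Level in *Yap1* cKO over level in control (horizontal log axis) for each gene in all (black), other (grey), anterior (purple), Y-bearing (blue) and *Xist*-bearing (orange) visceral endoderm-like (VE) cells, with 95% intervals for counting error and dashed lines at a fold of 1.5 either way. Over all cells the points lie between 0.858 and 1.30, and *Apoc2*, *Rbp4* and *Afp* spread furthest between Y-bearing and *Xist*-bearing cells.

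Outside the visceral endoderm, free RNA of broken cells adds UMIs to every droplet, so levels were set against what it could bring. Of 5 further genes that visceral endoderm-like cells express (*Spink1*, *S100g*, *Cubn*, *Soat2* and *Habp2*), 6 other populations held 0.0241% to 0.117% of the visceral endoderm-like level. That share of a gene's own level in visceral endoderm-like cells was taken as the level from free RNA. *Apoe* exceeded it in both libraries in each of these 6 populations. With 1 reference gene alone the count was 6 for *Spink1* and for *Cubn*, 5 for *S100g*, 4 for *Soat2* and 3 for *Habp2*. *Apoe* was at 417 CPM (408 to 427) and 348 CPM (338 to 359) in extraembryonic ectoderm-like cells, 294 (227 to 387) and 61.9 (53.2 to 72.4) times the level from free RNA, and at 502 CPM (475 to 530) and 492 CPM (465 to 519) in blood progenitor-like cells, 284 and 97.3 times that level. Where the profile of barcodes under 2000 detected genes was taken as free RNA instead, all 6 populations still exceeded it, by 19.6 to 174 times in control and, less far, by 4.05 to 31.4 times in *Yap1* cKO, with the lowest value of each library in epiblast-like cells.

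Lower levels of *Apoe* were found in epiblast-like cells and in embryonic populations other than the blood progenitor-like cells. It was at 166 and 164 CPM in mesoderm-like, 132 and 108 CPM in node-like, 109 and 86.2 CPM in primitive streak-like and 80.5 (76.7 to 84.5) and 63.0 (59.8 to 66.3) CPM in epiblast-like cells, where it was 33.1 (27.5 to 40.2) and 12.5 (11 to 14.3) times the level from free RNA. Neighbours in this order, such as mesoderm-like and node-like cells, are 1 value per library and were not tested. Between the libraries the ratio was 0.782 (0.728 to 0.840) in epiblast-like, 0.835 (0.804 to 0.866) in extraembryonic ectoderm-like and 0.979 (0.906 to 1.06) in blood progenitor-like cells.

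When each cell was thinned to 15000 UMIs, *Apoe* was seen in 97.8% (94.3 to 99.4) and 94.2% (87.8 to 97.8) of extraembryonic ectoderm-like cells, in 28 of 28 blood progenitor-like cells of each library and in 67.7% (61.5 to 73.5) and 56.8% (50.1 to 63.4) of epiblast-like cells. Unthinned, at medians of 72530 and 87693 UMIs, the epiblast-like shares were 98.8% and 97.8%. In the same thinned epiblast-like cells *Apoc2* was seen in 5.65% and 10.1%. Its level there was 1.37 (1.01 to 1.84) and 0.674 (0.543 to 0.833) times the level from free RNA. The share of cells with *Apoe* was thus several times the share with *Apoc2*. How much free RNA added to either share was not tested.

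*Rbp4* was the other gene above the level from free RNA in both libraries, in extraembryonic ectoderm-like and primitive streak-like cells only. In the former it was at 5.36 CPM (4.32 to 6.58; 91 UMIs) and 11.7 CPM (9.90 to 13.7; 154 UMIs), 8.03 (5.71 to 11.4) and 3.06 (2.45 to 3.82) times that level, and in the latter at 3.36 CPM (16 UMIs) and 5.15 CPM (55 UMIs), 2.73 (1.39 to 5.17) and 1.96 (1.38 to 2.76) times. The call in primitive streak-like cells was lost without *Spink1* among the reference genes. With *S100g* alone, or with the profile of barcodes under 2000 genes, *Rbp4* was above the level from free RNA in both libraries in 1 of the 6 populations, and with *Soat2* or *Habp2* alone in 0. In definitive endoderm-like cells *Spink1* had 324 and 329 UMIs, so that the full reference does not apply there. Without *Spink1*, which leaves 2 and 3 reference UMIs, *Rbp4* was at 5.46 (1.30 to 48.7) and 2.04 (0.538 to 11.4) and *Apoe* at 17.5 (4.74 to 146) and 9.16 (3.01 to 45.4) times the level from free RNA.

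The other 7 genes were above that level in both libraries in none of the 6 populations. Of the 9 genes, 4 lay below it with their whole interval, and 1 above, in *Yap1* cKO epiblast-like cells. There *Apob* was at 0.171 (0.0772 to 0.329) and *Ttr* at 0.505 (0.353 to 0.706) times that level. In control mesoderm-like cells 4 lay below and 2 above. There 1 cell had the reference genes at 254 CPM, against 7.99 CPM over the population, and so raised the level from free RNA. For the genes below that level, it was set too high. The same share thus does not hold for all genes, which limits every fold over that level. *Apoa1* in epiblast-like cells was at 3.69 CPM and 3.36 CPM, which was 2.02 (1.49 to 2.72) times the level from free RNA in control and 0.862 (0.660 to 1.11) times in *Yap1* cKO. Without *Spink1* among the reference genes these values were 1.08 (0.690 to 1.73) and 0.705 (0.490 to 1.02). *Apoc2* in extraembryonic ectoderm-like cells was at 2.18 and 13.0 CPM, a raw ratio between the libraries of 5.98 (4.17 to 8.78), and 1.37 (0.880 to 2.10) and 1.36 (1.10 to 1.69) times the level from free RNA. Without *Spink1*, which left 6 of 58 and 11 of 176 reference UMIs, it was at 1.66 (0.694 to 4.81) and 3.46 (1.89 to 7.06) times that level. The 5 reference genes together were at 0.0241% and 0.111% of their visceral endoderm-like level in these extraembryonic ectoderm-like cells. In *Yap1* cKO 1 cell weighed on that share, as given below. *Afp* had 1 and 4 UMIs in all epiblast-like cells and *Apoa4* had 2 and 2.

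**Figure D5:**
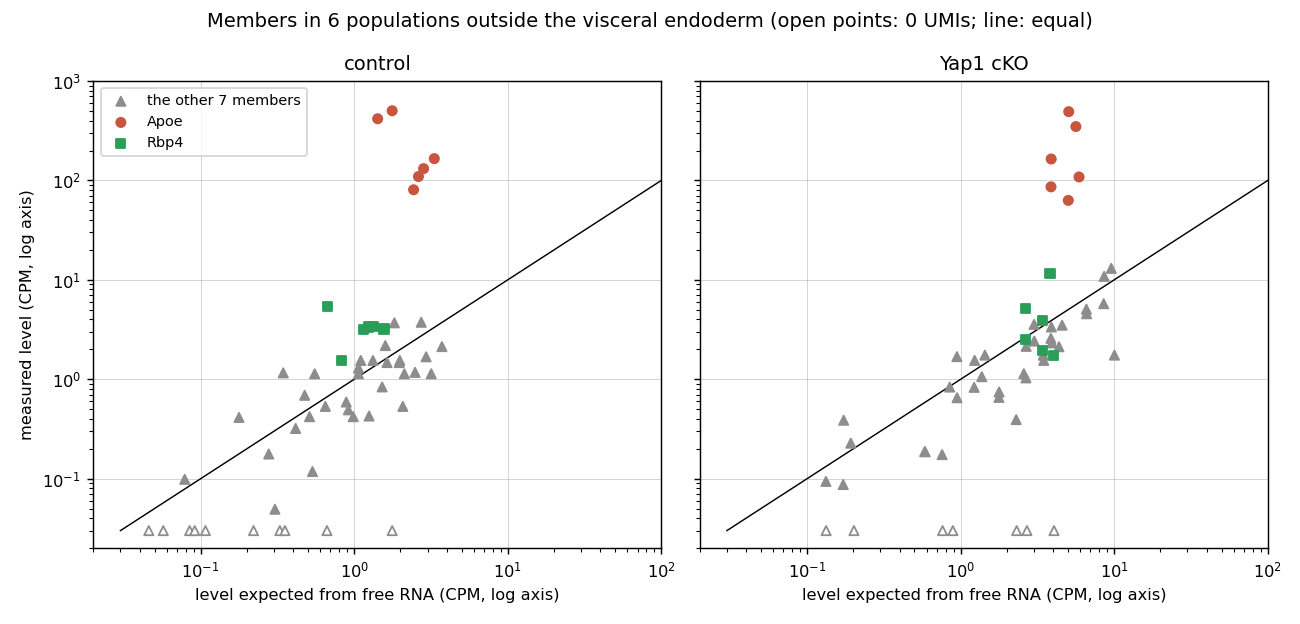
Measured level against the level that free RNA would give (both CPM, log axes) for the 9 genes in 6 populations outside the visceral endoderm of the control (left) and *Yap1* cKO (right) library, with a line of equality and open points at 0 UMIs. *Apoe* (red circles) lies far above the line in all 6 populations, from 12.5 to 294 times by the 5 reference genes. *Rbp4* (green squares) lies above it in extraembryonic ectoderm-like and primitive streak-like cells of both libraries, and the remaining genes lie on both sides of it.

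Some of these low sums came from single cells. For the 8 genes without *Apoe*, 1 of 103 *Yap1* cKO extraembryonic ectoderm-like cells held 173 of 431 UMIs (40.1%), at 910 CPM, and no other cell of that population was above 200 CPM. The same cell had the 5 reference genes at 353 CPM, against 13.3 CPM over the population. It thus also raised the level from free RNA there, which limits each fold over that level in this population. Gene by gene, the cell with the most UMIs of that population held 57.6% of them for *Apoc2*, 64.7% for *Ttr* and 20.8% for *Rbp4*. Without cells above 200 CPM the 8 genes were at 19.8 CPM there and at 10.1 CPM in control, where the top cell held 4.07%. In epiblast-like cells the top cell held 12.7% of 259 UMIs in control and 3.49% of 373 UMIs in *Yap1* cKO. A single *Yap1* cKO cell gated as parietal endoderm-like held 254 UMIs of the 8 genes, at 11124 CPM.

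Barcodes past the visceral endoderm cut that also held markers of another lineage were set apart before these sums. So were barcodes with an intermediate visceral endoderm score (1.2 to 2.4), unless they were node-like or definitive endoderm-like. Both kinds together were 10 in control and 15 in *Yap1* cKO. Of them, 2 and 5 would otherwise count as epiblast-like, 4 and 2 as extraembryonic ectoderm-like and 3 and 7 as mesoderm-like, and the 9 genes together reached 19822 CPM in the highest of them in control and 18070 CPM in *Yap1* cKO. Kept among epiblast-like cells, they raised *Apoc2* from 3.74 to 38.0 CPM in control and from 5.75 to 40.5 CPM in *Yap1* cKO, and 1 barcode then held 77.4% to 97.8% of the UMIs of each of the 8 genes in control and 63.6% to 92.3% in *Yap1* cKO. For *Apoe* 1 barcode held 22.9% and 16.2%, and its level rose from 80.5 to 104 CPM and from 63.0 to 88.7 CPM. Scrublet called 4 and 18 cells as doublets, none of them visceral endoderm-like.

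Of 11 genes listed for the machinery that builds and exports lipoproteins, 10 had enough UMIs in visceral endoderm-like cells and none passed 1.5-fold, beside 1.78% of all genes higher and 3.24% lower, so that 0 of 10 does not set the list apart. The median ratio was 1.02, and 0.983 over all genes. *Mttp* was at 247 and 282 CPM, its partner *P4hb* at 295 and 318 CPM, the cargo receptors *Surf4* and *Mia2* at 165 and 176 CPM and at 258 and 245 CPM, the coat GTPase *Sar1b* at 141 and 135 CPM, *Soat2*, which esterifies cholesterol, at 114 and 106 CPM, and *Dgat2*, which completes triglycerides, at 95.6 and 115 CPM. *Pla2g12b* was at 298 and 216 CPM (ratio 0.724, 0.686 to 0.766). Values of this list and of those that follow include the anterior cells and were not worked out without them. Over all genes, the shares past the fold were 1.66% higher and 1.55% lower without the anterior cells.

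Among 10 further apolipoprotein genes and relatives, 5 had enough UMIs and 1 passed the fold, beside the same 1.78% higher and 3.24% lower over all genes, which also stand beside the counts of the lists that follow. *Apoc3*, an inhibitor of lipoprotein lipase, was at 48.7 and 84.5 CPM (ratio 1.74, 1.54 to 1.97), and *Apoc1* was at 325 and 323 CPM. Of 13 receptors and transfer proteins, 6 had enough UMIs, *Vldlr* was higher (2.62 and 5.36 CPM, ratio 2.04, 1.21 to 3.66), and the cholesterol exporter *Abca1* was lower (7.86 and 3.48 CPM, ratio 0.442, 0.30 to 0.655). Of 11 genes of retinoid and thyroid hormone handling, 5 had enough UMIs, and the retinoic acid binding proteins *Crabp1* (2.31 and 6.55 CPM, ratio 2.83, 1.65 to 5.23) and *Crabp2* (17.6 and 32.2 CPM, ratio 1.83, 1.5 to 2.26) were higher.

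Albumin, the main carrier of adult plasma, had no UMI in visceral endoderm-like cells of either library, which allows up to 0.462 and 0.171 CPM. Of 12 other plasma carriers, 6 had enough UMIs and none passed the fold, with the fibrinogen chain *Fgb* at 133 and 106 CPM and *Trf* at 112 and 95.3 CPM. Of 14 liver and endoderm transcription factors, 7 had enough UMIs. *Gata4* was at 172 and 186 CPM, and *Zbtb20*, known as a repressor of *Afp* in adult liver, was lower (15.1 and 9.74 CPM, ratio 0.645, 0.50 to 0.836). Its ratio without the anterior cells was not worked out.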

How the data were processed

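The authors deposited raw UMI counts (genes by cell barcodes) and used Cell Ranger 7.1.0 and mm10 per the submitters' processing notes. Libraries held 70573418 (control) and 87937858 (*Yap1* cKO) UMIs, and kept cells 15974 to 324147 UMIs each. A population was gated by the mean of log2((CPM + 10)/10) over its markers. The cuts were set after the scores were seen. UMIs were summed per population and library. Exact intervals were Poisson for a level, Clopper-Pearson for a share and, for a ratio, binomial given the summed UMIs. A gene counted as past the fold at a ratio of at least 1.5 either way with an interval without 1 and at least 100 UMIs over both libraries. Y-bearing and *Xist*-bearing cells held at least 2 UMIs of Y-linked genes or of *Xist* and none of the other kind. The genes named are the 9 chosen, *Yap1*, listed genes at or above 100 CPM or past the fold, and the 3 nearest in likeness. *Dgat2*, *Cubn* and Alb were named for other reasons, after their values were seen, and 1 listed gene that the rule names is not reported here. The 9 genes and all lists were chosen with earlier results of these data known. Steps were tested on simulated data. Alternatives covered gates, gene minimums, doublets, scaling, weights, free RNA and UMI minimums. Python 3.11.15, numpy 2.4.6, scipy 1.17.1, pandas 2.3.3 and scanpy 1.11.5 were used.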

Additional observations from a re-analysis of the deposited data

Results flagged for a closer look

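Ratios of *Yap1* cKO to control for 4 genes lay on opposite sides of 1 in Y-bearing and *Xist*-bearing visceral endoderm-like cells, with intervals that exclude 1 on both sides. They were 0.357 and 1.51 for *Apoc2*, 2.30 and 0.911 for *Afp*, and 0.479 and 1.31 for *Rbp4*, each with a value past 1.5-fold, and 0.862 and 1.09 for *Apom*, which did not reach it. Without the anterior cells *Apom* was at 0.951 (0.880 to 1.03) and 0.941 (0.913 to 0.971), both below 1. Between anterior and other visceral endoderm-like cells, ratios of 6 genes lay on opposite sides of 1, with intervals that exclude 1 on both sides. *Apom*, at 1.68 and 0.970, and *Afp*, at 2.30 and 0.923, had a value past 1.5-fold, and *Apob*, at 1.40 and 0.953, *Apoa1*, at 1.36 and 0.808, *Ttr*, at 1.13 and 0.891, and *Apoe*, at 1.06 and 0.808, had none. With 1 library per genotype none of these differences was tested. The share of all genes with such a pattern was not worked out, so these counts do not set the genes apart.

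Barcodes with fewer than 2000 detected genes were not counted as cells and served only as a profile of free RNA in alternatives. They held the 9 genes at 0.434% of their UMIs in control (737 barcodes) and at 1.53% in *Yap1* cKO (616 barcodes). *Apoe* was at 1104 and 4415 CPM in them and *Afp* at 76.9 and 731 CPM.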

How the results depend on the processing

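No paired analysis was possible because each genotype has 1 library. The median of the 9 ratios in visceral endoderm-like cells, 1.03 as reported, became 0.984 with looser gates, 1.13 with cells weighted equally, 0.893 in Y-bearing cells and 0.923 without anterior cells. The count of the 9 genes past 1.5-fold went from 0 to 3 in Y-bearing and to 1 in *Xist*-bearing visceral endoderm-like cells, from 0 to 3 in the other visceral endoderm-like cells when Y-bearing, and from 3 to 5 in the anterior cells when *Xist*-bearing. This count took the ratio alone, without the interval or the UMI minimum. The 1 gene in *Xist*-bearing visceral endoderm-like cells was *Apoc2*, which was at 1.30 there without the anterior cells. The share over all genes was not worked out in the sexed cells, so the count does not set the 9 genes apart. Populations with *Apoe* above the level from free RNA in both libraries were 3 in place of 6 with *Habp2* alone as the reference. For *Rbp4* they were 1 in place of 2 with *S100g* alone, with the profile of barcodes under 2000 genes, or, an alternative chosen after seeing the data, without *Spink1*, and 0 with *Soat2* or *Habp2* alone. A stricter cut on visceral endoderm markers moved the top cell's share of the 8 genes from 12.7% to 5.85% in control epiblast-like cells and from 40.1% to 7.45% in *Yap1* cKO extraembryonic ectoderm-like cells, and a minimum of 2000 genes moved it from 3.49% to 6.42% in *Yap1* cKO epiblast-like cells. At minimums of 20 and 500 UMIs in place of 100, genes past the fold in visceral endoderm-like cells were 333 and 29 in place of 173 higher, and 596 and 59 in place of 315 lower. Leaving aside the split by sex, single ratios ranged over 11 alternatives from 1.17 to 1.36 for *Apoc2*, 1.13 to 1.34 for *Rbp4*, 0.808 to 0.951 for *Apoe* and 0.923 to 1.13 for *Afp*.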
